A study of Homo sapiens with 16 samples.

Results

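J82 is an established human bladder cancer cell line, grown from a transitional cell carcinoma. Its response to CM-1758, an inhibitor of histone deacetylases (HDACs), is described here across genes. The members are the 4 J82 libraries of the 16 RNA-seq libraries of the series, chosen by the cell line and treatment in the sample names. They are 2 libraries of cells given CM-1758 for 48 h and 2 control libraries. The dose was the IC50 of J82, the concentration that halved survival. The study's RNA-seq legend calls the control cells untreated. Its methods name 0.01% DMSO, the solvent, as a control in other assays and do not say if the RNA-seq controls received it. In both groups the libraries are numbered 1 and 3 and come from 2 independent experiments. The other 12 libraries are controls and CM-1758 cultures of 253J, RT112 and TCCSUP, also bladder cancer cell lines, and serve here to estimate the spread and to show where J82 differs. The control libraries held 29916828 and 32537104 counts and the treated libraries 28723648 and 31547585 counts, each count being 1 read assigned to a gene. Levels are given as CPM, the count of a gene scaled to a fixed library total after TMM adjustment of the library size, and always for replicate 1 and then replicate 3. CPM is not divided by gene length, so levels are compared only within a gene.

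HDACs take acetyl groups off the lysines of histones and of many other proteins, and acetylated histones mark active promoters and enhancers. An HDAC inhibitor raises acetylation across the genome, and HDAC inhibitors are known both to switch on genes that are silent in a cell type and to lower the transcription of other, highly active genes. In bulk RNA, a change of RNA per cell and a change in the share of cells of one state cannot be told apart.

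The 4 libraries carried the epithelial label of the cell line in part. The keratins of simple epithelia were abundant in the controls, with 2653 and 3404 CPM for KRT8 and 1556 and 2133 CPM for KRT18. The uroplakins UPK2 and UPK3A, the surface proteins of differentiated urothelium, and the basal keratins KRT5 and KRT14 had 0 CPM in all 4 libraries. The mesenchymal genes VIM (vimentin) and CDH2 (N-cadherin) were present, at 278 and 313 CPM and at 514 and 535 CPM. Of the markers of blood, vessel and muscle cells, CD3E and MS4A1 did not pass the filter on low counts, and the 12 that did summed to 15.6 and 14.97 CPM in the controls and to 27.02 and 29.8 CPM with CM-1758. Among these 12, 5 rose (41.7%) and 0 fell at an adjusted p below 0.05 in edgeR, against 24.0% and 18.5% of all tested genes, and 3 rose when either control or treated replicate 3 was left out. The rises include the muscle filament gene DES, which went from 0.152 and 0 CPM to 4.08 and 5.92 CPM. In 5 of the 12 each control had at most 3 counts, so a fall could hardly be seen, and 2 of the rises were among these.

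CM-1758 raised 1876 of the 21297 tested genes in J82 and lowered 265, or 8.81% and 1.24%, when a call needed both an adjusted p below 0.01 by the quasi-likelihood test of edgeR and a log2 fold change beyond 2 or -2. At an adjusted p below 0.05 with any fold change, 5111 genes (24.0%) were higher and 3933 (18.5%) lower. The shares of 24.0% and 18.5% are the background for every count of genes that rose or fell in the lists that follow, which use the adjusted p of 0.05. Where a list has 0 to 2 genes called in a direction, leaving out 1 J82 library moved that count by at most 2. The strong changes therefore went mainly upward, with 87.6% of them higher, while the changes of any size were nearly balanced. The treated and control libraries did not overlap in any of the 1876 and 265 genes, and they did not overlap in 34.8% (higher) and 27.9% (lower) of all tested genes. The p-values use the spread over all 8 groups, which is smaller than that of J82. With the J82 libraries alone, 1367 genes were higher and 241 lower at the strong thresholds and 3562 and 2585 at the adjusted p of 0.05. Scaling by library size alone moved the median log2 fold change of all tested genes from 0.05 to 0.19, so smaller changes depend on the scaling.

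Many of the strong rises were of genes with little or no RNA in the controls. Of the 1876, 742 (39.6%) had at most 3 counts in each control library, 571 of them 0 counts in both, and 611 had at least 10 counts in each of the 4 libraries. Against a floor of 3 counts per library, 286 of the 742 were at least 8-fold higher and 44 at least 32-fold higher. The strong falls were of expressed genes. Of the 265, 210 had at least 10 counts in each of the 4 libraries, and 20 had at most 3 counts in each treated library.

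The control libraries differed from each other more than those of any other group. Of the 11007 genes with a mean of 5 CPM or more in them, 234 (2.13%) were over 2-fold apart, and 223 of these were higher in replicate 1. In the treated J82 pair, 181 of 11525 genes (1.57%) were over 2-fold apart, 162 of them higher in replicate 1. In the 6 pairs of libraries of the other cell lines the share was 0.218% to 0.510%. Among genes over 2-fold apart, replicate 1 of each J82 pair is therefore the one that more often stands above its partner. This does not hold for genes in general. Of all 21297 tested genes, control replicate 1 was above replicate 3 in 9706 and treated replicate 1 was above replicate 3 in 10021.

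The 8 genes furthest in excess in control replicate 1, among those with a mean of 10 CPM or more in the controls, were CXCL8, TNC, ZNF765-ZNF761, KLHDC7B, PP7080, IL6, FBXO32 and TNFAIP3. CXCL8, the neutrophil chemokine interleukin-8, had 33.2 and 2.25 CPM in the controls and 85.9 and 40.1 CPM with CM-1758. IL6, a cytokine, had 100.4 and 16.9 CPM in the controls and 117 and 44.3 CPM with CM-1758. TNFAIP3, the NF-kB feedback inhibitor A20, had 55.5 and 11.3 CPM in the controls and 69.3 and 40.1 CPM with CM-1758, and TNC, the matrix protein tenascin-C, had 49.5 and 4.98 CPM in the controls and 56.9 and 6.16 CPM with CM-1758. None of these 4 genes passed the test of CM-1758 against control with both controls. Against control replicate 3 alone the log2 fold change was 4.80 for CXCL8, 2.25 for IL6 and 2.66 for TNC, and against control replicate 1 alone it was 0.92, -0.32 and -0.65. The sign for IL6 and TNC thus depends on which control is used. TNFAIP3 had a log2 fold change of 2.27 against control replicate 3 alone and of -0.02, near no change, against control replicate 1 alone. The genes most in excess in control replicate 3 included FOS, an immediate early gene, with 6.19 and 19.8 CPM in the controls and 10.3 and 13.3 CPM with CM-1758, and STBD1, a glycogen-binding protein, with 6.61 and 21.4 CPM in the controls and 13.5 and 11.1 CPM with CM-1758. Several of the others on either side are readthrough or near-identical genes (ZNF765-ZNF761, NME1-NME2, TRIM59-IFT80), whose reads are shared with neighbours and are uncertain.

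The difference between the controls also followed transcript length and base composition. Over the 10681 of the 11007 genes (97%) whose longest transcript is in the GENCODE annotation, the median log2 ratio of control replicate 1 over replicate 3 was -0.24 in the first of 4 equal bins, with the shortest transcripts, and 0.13 in the bin with the longest. It was -0.16 in the bin with the lowest GC content and 0.09 in that with the highest. The treated pair ran from -0.16 to 0.15 by length. The part of length in the differences between genes was not tested.

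With either control alone, 1187 of the 1876 genes stayed among the strong rises and 167 of the 265 among the strong falls. Of the genes past the adjusted p of 0.05, 0 passed in the opposite direction without control replicate 1 or without control replicate 3. Without any 1 of the 4 libraries, 1159 rises and 125 falls remained.

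Of the 40 gene lists, the interferon-induced effectors had the lowest median. Type I interferons signal through a complex with STAT2 and IRF9, which binds the interferon-stimulated response element in the promoters of antiviral genes. Of 53 tested effectors of this response, 52 fell and 0 rose, with a median log2 fold change of -2.68 against 0.05 over all tested genes. With either control alone the median was -2.44 and -2.80, and with the J82 libraries alone 49 of the 53 fell. The levels before treatment were high. The 53 genes summed to 21160 and 16823 CPM in the J82 controls and to 4424 and 2479 CPM with CM-1758, whereas in the controls of the other lines they summed to between 2349 CPM in 253J and 6213 CPM in TCCSUP. The treated J82 libraries thus lay within the range of the controls of the other lines.

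Stretches of 80 bases upstream of the transcription start are shown for 4 of these genes, chosen for holding the element. They are given 5′ to 3′ on the strand of the gene, from RefSeq's GRCh38.p14 promoter table. Matches to GAAANNGAAA, the core of the interferon-stimulated response element, on either strand are in capitals. OAS2 and XAF1, also looked up, gave no stretch with a match. The stretches lie 79 to 158 bases before the start in IFIT1, 27 to 106 in IFIT3, 83 to 162 in ISG15 and 121 to 200 in RSAD2. The positions are chr10:89392465-89392544 on the plus strand for IFIT1, chr10:89332423-89332502 on the plus strand for IFIT3, chr1:1013335-1013414 on the plus strand for ISG15 and chr2:6877577-6877656 on the plus strand for RSAD2. IFIT3 has 2 starts in the table with matches, and the stretch nearest to its start is shown.
IFIT1: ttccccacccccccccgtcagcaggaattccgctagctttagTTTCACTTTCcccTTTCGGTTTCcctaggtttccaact
IFIT3: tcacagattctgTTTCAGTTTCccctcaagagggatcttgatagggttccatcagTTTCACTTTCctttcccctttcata
ISG15: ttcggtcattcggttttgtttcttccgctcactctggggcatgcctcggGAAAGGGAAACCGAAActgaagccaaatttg
RSAD2: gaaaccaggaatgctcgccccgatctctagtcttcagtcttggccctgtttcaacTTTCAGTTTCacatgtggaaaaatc
IFIT1 and IFIT3 hold 2 matches each and RSAD2 holds 1, all on the opposite strand, and the 2 matches of ISG15 overlap. Of the 41 tested effectors with a promoter in the table, 26 (63.4%) had a match within the 250 bases before a start, against 3.71% of all 27305 genes there. Among 17 matched genes of MHC class I presentation it was 8 (47.1%), and among 37 mitosis genes 1 (2.7%). A match is a description of the letters and not a bound site.

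Among genes with at least 10 counts in every J82 library, the 8 with the largest falls are all known to be induced by interferon, and 7 of them are described here and DHX58 among the sensors. OAS2, a synthetase that senses double-stranded RNA and activates RNase L, had 372 and 275 CPM in the controls and 18.04 and 3.42 CPM with CM-1758 (log2 fold change -4.92, SE 0.50, adjusted p = 2.62e-06). MX2, a dynamin-like GTPase that blocks viral entry to the nucleus, had 212 and 185 CPM in the controls and 12.96 and 1.42 CPM with CM-1758 (log2 fold change -4.79, SE 0.59, adjusted p = 2.29e-05). IFIT3, whose family binds foreign RNA ends, had 393 and 335 CPM in the controls and 25.2 and 3.62 CPM with CM-1758 (log2 fold change -4.66, SE 0.55, adjusted p = 1.13e-05). In each the controls lay close together while the treated libraries lay 5-fold or more apart, with replicate 3 the lower. MX1, the antiviral GTPase related to MX2, had 1174 and 1106 CPM in the controls and 76.5 and 16.8 CPM with CM-1758 (log2 fold change -4.61, SE 0.49, adjusted p = 4.03e-06). RSAD2, or viperin, which makes a chain-terminating nucleotide, had 350.3 and 209.8 CPM in the controls and 24.1 and 2.27 CPM with CM-1758 (log2 fold change -4.41, SE 0.64, adjusted p = 6.57e-05), and SAMD9L, an antiviral growth inhibitor, had 316 and 224 CPM in the controls and 20.2 and 5.52 CPM with CM-1758 (log2 fold change -4.39, SE 0.46, adjusted p = 3.20e-06). No overlap between the groups was a condition of the choice of these 8 genes. XAF1, a promoter of apoptosis, went from 172 and 125 CPM to 14.3 and 2.23 CPM, with a log2 fold change of -4.17.

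The abundant members fell too. ISG15, the ubiquitin-like modifier of this pathway, went from 1062 and 1029 CPM to 130.4 and 64.8 CPM (log2 fold change -3.42, SE 0.27, adjusted p = 2.92e-07). The enzymes of ISG15 conjugation fell with it, and UBA7, its activating enzyme, went from 88.2 and 59.5 CPM to 7.16 and 1.66 CPM. PARP14, an ADP-ribosyltransferase, went from 1891 and 1497 CPM to 238 and 82.4 CPM (log2 fold change -3.402, SE 0.35, adjusted p = 2.88e-06), and IFITM1, a membrane protein that blocks viral fusion, from 1232 and 812 CPM to 105 and 24.9 CPM (log2 fold change -3.98, SE 0.53, adjusted p = 4.27e-05). OAS3 went from 862 and 555 CPM to 84.8 and 21.3 CPM and IFIT1 from 505 and 641 CPM to 102 and 70.6 CPM, with log2 fold changes of -3.74 and -2.73. The smallest values were those of GBP2, TRIM5 and SLFN5, at -0.60, -0.58 and -0.23, and SLFN5 did not pass (adjusted p = 0.367).

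The treated libraries differed in depth of the fall. Treated replicate 1 lay above replicate 3 in 50 of the 53 genes, with a median log2 ratio of 1.05, and control replicate 1 lay above replicate 3 in 42, with a median of 0.32. Without treated replicate 1 the median log2 fold change was -3.59, and without treated replicate 3 it was -2.28. The direction was that of the whole set in both.

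Upstream of these genes, the sensors and transcription factors fell while receptors and kinases mostly did not pass. Of the 35 tested genes of sensing and signaling 18 fell and 3 rose, and of the 11 sensors among them 9 fell. DHX58 (LGP2) went from 62.1 and 57.1 CPM to 4.97 and 1.49 CPM (log2 fold change -4.21, SE 0.37, adjusted p = 7.78e-07), and DDX58, which encodes the RNA sensor RIG-I, from 712 and 661 CPM to 169 and 82.8 CPM (log2 fold change -2.45, SE 0.23, adjusted p = 1.47e-06). IFIH1 (MDA5) went from 183 and 144 CPM to 36.97 and 11.03 CPM, TLR3 from 24.7 and 12.7 CPM to 4.37 and 0.643 CPM and STING1, the adaptor of the DNA sensor cGAS, from 14.4 and 8.69 CPM to 2.08 and 1.22 CPM. Of 9 transcription factors 6 fell. IRF7, which amplifies interferon production, went from 255 and 206 CPM to 40.7 and 15.6 CPM (log2 fold change -3.03, SE 0.33, adjusted p = 1.25e-05) and IRF9 from 82.1 and 88.5 CPM to 16.8 and 9.14 CPM. IRF1 had 80.5 and 41.6 CPM in the controls and 42.9 and 25.4 CPM with CM-1758, a log2 fold change of -0.84 that was -0.29 against control replicate 3 alone, and its groups overlap. IRF5 rose, from 4.44 and 4.07 CPM to 11.8 and 9.24 CPM. Of the 6 receptor genes 1 passed, IFNLR1, which rose from 1.63 and 0.581 CPM to 3.04 and 3.21 CPM. IFNAR1 had 28.6 and 23.9 CPM in the controls and 25.3 and 20.2 CPM with CM-1758 and its adjusted p was 0.301. Of the kinases, TYK2 fell slightly, with a log2 fold change of -0.49, and JAK1, at -0.26, did not pass. IFNB1, the ligand interferon beta, had few reads and fell from 1.78 and 0.545 CPM to 0.215 and 0.271 CPM.

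MHC class I presentation fell and class II rose. Class I molecules show peptides made by the proteasome to CD8 T cells, and class II molecules show peptides of taken-up proteins to CD4 T cells. Of 21 tested class I genes 19 fell and 0 rose, with a median log2 fold change of -1.44. With control replicate 3 alone the median was -1.19 and with control replicate 1 alone -1.53, and with the J82 libraries alone 15 of the 21 fell. Control replicate 1 lay above replicate 3 in 19 of the 21 genes. All 5 genes listed for the immunoproteasome and all 9 genes of peptide loading fell. PSMB10, a catalytic subunit of the immunoproteasome, went from 38.5 and 31.000 CPM to 2.08 and 1.79 CPM (log2 fold change -4.16, SE 0.26, adjusted p = 4.15e-08), PSMB8 from 108 and 106 CPM to 30.6 and 14.4 CPM, and TAP2 of the peptide transporter from 254 and 163 CPM to 81.03 and 39.9 CPM (log2 fold change -1.79, SE 0.26, adjusted p = 7.89e-05). NLRC5, the transactivator of class I genes, went from 66.2 and 36.6 CPM to 15.2 and 8.76 CPM. The 6 surface chains had a median of -0.83, the 9 peptide-loading genes -1.76 and the 5 genes listed for the immunoproteasome -1.56. HLA-E fell, from 1309 and 785 CPM to 551 and 356 CPM, and B2M, the shared light chain, from 4796 and 3644 CPM to 2989 and 2062 CPM (log2 fold change -0.74, SE 0.20, adjusted p = 0.00748). HLA-B had 3222 and 1790.0 CPM in the controls and 1970.2 and 1316 CPM with CM-1758 and did not pass (adjusted p = 0.0528). Its control replicate 3 lay between the treated libraries, so the groups overlap. The HLA genes are near-identical copies, and reads split between them are uncertain.

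Of 9 tested class II genes 6 rose and 0 fell. The median log2 fold change was 3.05 with both controls, 3.70 with control replicate 3 alone and 2.07 with control replicate 1 alone. Control replicate 1 lay above replicate 3 in 8 of the 9 genes. HLA-DRA went from 5.54 and 1.96 CPM to 25.5 and 21.1 CPM (log2 fold change 2.63, SE 0.40, adjusted p = 1.22e-04) and HLA-DMB, which loads peptide, from 1.82 and 1.09 CPM to 18.3 and 22.1 CPM (log2 fold change 3.79, SE 0.44, adjusted p = 1.24e-05). HLA-DPB1 had 1 and 0 counts in the controls and 3.11 and 3.01 CPM with CM-1758, at least 27.5-fold higher. CIITA, the class II transactivator, did not pass, with 1.25 and 0.436 CPM in the controls and 0.716 and 0 CPM with CM-1758, and CD74, the invariant chain, had 3.84 and 1.599 CPM in the controls and 4.04 and 1.46 CPM with CM-1758. The 6 genes that rose reached at most 25.5 CPM in a treated library, so class II RNA stayed low, and the HLA caveat holds here too.

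Of 15 tested ligands of immune checkpoints 6 fell and 4 rose. CD274, which encodes PD-L1, rose, from 87.95 and 74.1 CPM to 160.4 and 138 CPM (log2 fold change 0.88, SE 0.15, adjusted p = 2.97e-04). PDCD1LG2, which encodes PD-L2, fell, from 42.3 and 29.6 CPM to 10.6 and 4.23 CPM (log2 fold change -2.28, SE 0.52, adjusted p = 0.00306). The 2 ligands of PD-1 therefore changed in opposite directions, with no overlap between the groups in either. PVR, a ligand of TIGIT, fell from 490.3 and 419 CPM to 252 and 178 CPM, ICOSLG fell from 12.4 and 6.51 CPM to 2.76 and 1.32 CPM, and LGALS9 fell from 3.65 and 0.909 CPM to 0.322 and 0.169 CPM. CD70 rose from 1.06 and 0.291 CPM to 11.95 and 6.396 CPM and TNFSF9, the ligand of 4-1BB, from 3.46 and 1.53 CPM to 14.4 and 15.6 CPM. CD47 and CD276 did not pass, with log2 fold changes of -0.19 and 0.46.

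Of 28 tested cytokines and chemokines 7 rose and 5 fell, and the counts without 1 library ran from 4 to 10 rises, fewest without control replicate 3, and from 3 to 7 falls, fewest without control replicate 1 or treated replicate 3. The interferon-induced chemokines CXCL10 and CCL5, which attract T cells, fell, CXCL10 from 19.3 and 8.32 CPM to 1.83 and 0.508 CPM and CCL5 from 73.6 and 37.8 CPM to 14.1 and 4.399 CPM (log2 fold change -2.59, SE 0.57, adjusted p = 0.00255). IL18, an inflammasome cytokine, rose from 13.6 and 18.8 CPM to 80.2 and 146 CPM (log2 fold change 2.804, SE 0.26, adjusted p = 1.19e-06). For CXCL8 and IL6 the controls differed more than the groups. The median of the list was 0.61 with both controls, 1.71 with control replicate 3 alone and 0.07 with control replicate 1 alone. Control replicate 1 lay above replicate 3 in 24 of the 28 genes.

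Genes of mitosis fell nearly throughout. Late cell-cycle genes are driven by the transcription factors MYBL2 and FOXM1, and their promoters often hold CCAAT boxes, bound by NF-Y, and a CHR element with the core TTTGAA. Of 44 tested mitosis genes 41 fell and 0 rose, with a median log2 fold change of -1.10. With control replicate 3 alone it was -1.24 and with control replicate 1 alone -0.94, and with the J82 libraries alone 37 of 44 fell. In the controls, replicate 3 was the higher in 38 of the 44 genes, the opposite order to that of the interferon genes, and with CM-1758 replicate 3 was the lower in 43.

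Promoters of 3 of these genes, chosen for holding both elements, are shown. The stretches are of 80 bases upstream of the start, from the same RefSeq table, with CCAAT and TTTGAA in capitals on either strand. Those of CCNB2 and PLK1 end 9 bases before the start and that of CDC20 ends 36 bases before it. They lie at chr15:59105058-59105137 on the plus strand for CCNB2, chr1:43358866-43358945 on the plus strand for CDC20 and chr16:23678801-23678880 on the plus strand for PLK1.
CCNB2: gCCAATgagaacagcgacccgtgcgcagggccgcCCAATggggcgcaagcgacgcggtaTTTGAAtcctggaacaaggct
CDC20: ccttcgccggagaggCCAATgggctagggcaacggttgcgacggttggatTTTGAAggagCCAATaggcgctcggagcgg
PLK1: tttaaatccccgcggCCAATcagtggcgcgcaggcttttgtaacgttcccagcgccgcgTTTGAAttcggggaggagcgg
Holding both elements was the ground for showing these 3 stretches. Of the other genes looked up, CDK1 also had both, the stretches of CCNB1 and TOP2A held CCAAT alone, and AURKA and UBE2C gave none. Of 37 mitosis genes with a promoter in the table, 29 (78.4%) had CCAAT within 250 bases before a start and 19 (51.4%) had TTTGAA, against 37.0% and 16.1% of all genes in the table. Both were in 17 (45.9%), against 5.79% of all genes.

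Of the 5 roles in the list, the transcription factors had the lowest median. MYBL2 went from 181 and 192 CPM to 38.3 and 20.8 CPM (log2 fold change -2.66, SE 0.26, adjusted p = 2.22e-06) and FOXM1 from 64.5 and 53.02 CPM to 14.4 and 8.97 CPM (log2 fold change -2.33, SE 0.29, adjusted p = 1.85e-05). Among the kinases and cyclins, PLK1, the polo-like kinase of mitotic entry, went from 45.9 and 45.8 CPM to 18.8 and 8.05 CPM (log2 fold change -1.77, SE 0.28, adjusted p = 1.30e-04), AURKB from 57.003 and 71.7 CPM to 20.2 and 13.9 CPM, CCNB1, the cyclin of mitotic entry, from 289.95 and 471 CPM to 150.4 and 108 CPM (log2 fold change -1.56, SE 0.24, adjusted p = 1.13e-04), and CDK1 from 120.2 and 175 CPM to 92.8 and 71.9 CPM. In each of these the treated libraries lay below both controls, with replicate 3 the lower. KIF20A, a motor of cytokinesis, went from 139 and 195 CPM to 45.99 and 26.3 CPM (log2 fold change -2.21, SE 0.25, adjusted p = 8.23e-06), and CDC20, the activator of the anaphase-promoting complex, from 118 and 132 CPM to 67.4 and 43.1 CPM. NEK2, HMMR and CDC25C did not pass, with log2 fold changes of -0.44, -0.41 and -0.37.

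Of 41 tested DNA replication genes 29 fell and 4 rose, with a median log2 fold change of -0.69, and 19 fell without control replicate 3. Without control replicate 1 or treated replicate 3, 1 rose. With the J82 libraries alone 22 fell and 1 rose. All 6 genes of nucleotide supply fell, among them RRM2, a subunit of ribonucleotide reductase, from 146 and 172 CPM to 68.04 and 45.4 CPM (log2 fold change -1.49, SE 0.23, adjusted p = 1.29e-04), and TYMS, thymidylate synthase, from 45.3 and 50.1 CPM to 16.8 and 16.7 CPM (log2 fold change -1.51, SE 0.28, adjusted p = 5.49e-04). MCM7 of the replicative helicase went from 512 and 588 CPM to 274 and 274 CPM and MCM6 of the same complex had 91.8 and 96.1 CPM in the controls and 109 and 107 CPM with CM-1758, a log2 fold change of 0.20 that did not pass. GINS4, a helicase partner, rose from 42.3 and 53.8 CPM to 82.1 and 98.95 CPM, and PRIM1, the primase, from 28.3 and 46.7 CPM to 55.6 and 66.3 CPM. Of 26 genes of homologous recombination and the Fanconi pathway 17 fell and 1 rose. BRCA1 went from 108 and 102 CPM to 64.7 and 46.4 CPM and BRCA2 from 158 and 137 CPM to 84.1 and 57.1 CPM.

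Of 23 cell-cycle brakes and G1 regulators 7 rose and 5 fell, with 3 falls without control replicate 3 or treated replicate 1, and inhibitors of the cyclin-dependent kinases did not move together. CDKN1A, which encodes p21, rose from 13.1 and 7.78 CPM to 76.7 and 144 CPM (log2 fold change 3.41, SE 0.27, adjusted p = 3.08e-07), and CDKN1C, which encodes p57, from 0.532 and 0.727 CPM to 5.76 and 7.78 CPM (log2 fold change 3.42, SE 0.32, adjusted p = 1.17e-06). CDKN2A fell, from 129 and 175 CPM to 65.1 and 69.5 CPM (log2 fold change -1.18, SE 0.16, adjusted p = 1.58e-04), and CDKN1B, which encodes p27, did not pass at -0.31. CDK4 fell from 202 and 236 CPM to 91.9 and 95.7 CPM while its partner CCND1, cyclin D1, rose from 508 and 539 CPM to 921 and 962 CPM (log2 fold change 0.85, SE 0.20, adjusted p = 0.00282). CCND2, cyclin D2, had 0 counts in both controls and 2.97 and 4.74 CPM with CM-1758, at least 34.6-fold higher. BTG2, an antiproliferative gene, rose from 0.722 and 0.327 CPM to 4.58 and 6.36 CPM.

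Of 35 genes of apoptosis 5 rose and 11 fell, shares of 14.3% and 31.4% against 24.0% and 18.5% of all genes, and 6 fell with the J82 libraries alone. BIK, a BH3-only protein, rose from 0.07595 and 0.218 CPM to 2.51 and 3.25 CPM (log2 fold change 4.24, SE 0.49, adjusted p = 9.45e-06), and BMF, another of them, from 3.53 and 2.87 CPM to 10.6 and 13.7 CPM (log2 fold change 1.92, SE 0.22, adjusted p = 9.64e-06). BIRC3, an inhibitor of apoptosis, rose from 23.8 and 12.1 CPM to 109.7 and 83.9 CPM (log2 fold change 2.43, SE 0.27, adjusted p = 6.13e-06). BID fell from 32.8 and 39.5 CPM to 13.9 and 12.3 CPM, CFLAR, the inhibitor of caspase-8, from 141 and 123 CPM to 70.01 and 48.1 CPM, and TNFSF10, the death ligand TRAIL, from 54.2 and 23.9 CPM to 14.7 and 8.9003 CPM. BCL2, BCL2L1 and MCL1 did not pass, with log2 fold changes of 0.31, 0.19 and -0.27.

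Of 25 genes of the histone acetylation machinery 11 fell and 4 rose, and the HDAC genes themselves changed unevenly. Of the class I HDACs, HDAC3 rose from 43.9 and 57.5 CPM to 80.6 and 114 CPM (log2 fold change 0.94, SE 0.17, adjusted p = 4.35e-04), and HDAC1, HDAC2 and HDAC8 did not pass, with log2 fold changes of 0.17, 0.43 and 0.16. Of the class II HDACs, HDAC5 rose from 13.98 and 13.6 CPM to 35.3 and 53.9 CPM (log2 fold change 1.696, SE 0.26, adjusted p = 9.38e-05), HDAC9 from 4.33 and 3.13 CPM to 9.48 and 8.26 CPM and HDAC4 from 10.3 and 8.18 CPM to 14.6 and 14.2 CPM, while HDAC7 fell from 36.6 and 35.7 CPM to 13.4 and 9.64 CPM (log2 fold change -1.65, SE 0.17, adjusted p = 2.36e-06), HDAC6 from 62.3 and 59.2 CPM to 37.5 and 35.2 CPM and HDAC10 from 9.304 and 6.87 CPM to 5.48 and 4.06 CPM. Class II thus split 3 to 3. Of 10 acetyltransferases, the enzymes that oppose HDACs, 7 fell and 0 rose. KAT2A fell from 63.6 and 50.04 CPM to 21.6 and 20.6 CPM (log2 fold change -1.43, SE 0.18, adjusted p = 2.05e-05) and CREBBP from 45.04 and 27.7 CPM to 17.9 and 11.98 CPM, and EP300 did not pass at -0.55.

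Of 30 genes of DNA and histone methylation 12 fell and 3 rose. DNMT1, the maintenance DNA methyltransferase, fell from 199.9 and 186 CPM to 97.4 and 81.6 CPM (log2 fold change -1.11, SE 0.15, adjusted p = 3.81e-05), as did its partner UHRF1, from 106 and 121 CPM to 51.7 and 36.04 CPM (log2 fold change -1.38, SE 0.21, adjusted p = 1.11e-04). DNMT3A and DNMT3B, the de novo enzymes, did not pass, with log2 fold changes of 0.05 and -0.23. SUV39H1, a methyltransferase for histone H3 lysine 9, fell from 23.9 and 22.3 CPM to 6.8001 and 5.18 CPM. The demethylases KDM7A and KDM5B rose, KDM7A from 6.11 and 5.12 CPM to 34.6 and 33.8 CPM (log2 fold change 2.61, SE 0.15, adjusted p = 2.05e-08) and KDM5B from 41.5 and 34.5 CPM to 128 and 119 CPM (log2 fold change 1.700, SE 0.15, adjusted p = 7.55e-07). Of 38 replication-dependent histone genes, which are made in S phase, 17 fell and 1 rose, and 27 fell without control replicate 1 and 13 without control replicate 3. Of 11 replacement histones, made outside S phase, 2 rose and 2 fell.

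Among genes with at least 10 counts in every J82 library, the 8 with the largest log2 fold changes were DHRS2, PMEL, NES, ERBB4, ALPG, SYP, MAMDC2 and TPPP. DHRS2, a short-chain dehydrogenase, had 0.911 and 0.545 CPM in the controls and 96.3 and 144 CPM with CM-1758 (log2 fold change 7.36, SE 0.33, adjusted p = 4.42e-09). PMEL, a pigment cell protein, had 0.7595 and 0.509 CPM in the controls and 27.3 and 50.9 CPM with CM-1758 (log2 fold change 5.94, SE 0.39, adjusted p = 5.54e-08), and NES, the neural progenitor filament nestin, 0.911 and 0.909 CPM in the controls and 55.9 and 47.1 CPM with CM-1758 (log2 fold change 5.82, SE 0.27, adjusted p = 5.06e-09). In all 3 both treated libraries lay over 30-fold above both controls. ERBB4, a receptor tyrosine kinase, had 0.418 and 0.472 CPM in the controls and 24.2 and 24.4 CPM with CM-1758 (log2 fold change 5.75, SE 0.29, adjusted p = 1.57e-08), and MAMDC2, an extracellular matrix proteoglycan, 9.27 and 9.59 CPM in the controls and 351 and 452 CPM with CM-1758 (log2 fold change 5.41, SE 0.21, adjusted p = 1.55e-09). SYP, the synaptic vesicle protein synaptophysin, went from 1.52 and 0.836 CPM to 46.1 and 54.9 CPM, ALPG, a germ cell alkaline phosphatase, from 0.494 and 0.472 CPM to 14.2 and 28.2 CPM, and TPPP, a tubulin-polymerizing protein, from 0.532 and 0.363 CPM to 15.9 and 18.5 CPM.

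Among genes at or under 3 counts in each control, the most abundant with CM-1758 were PADI2, which converts arginine to citrulline in proteins, at 34.5 and 49.3 CPM and at least 376-fold higher, and HPCAL4, a neuronal calcium sensor, at 21.7 and 34.01 CPM and at least 249.8-fold higher. GRIA2, a glutamate receptor subunit, was at least 123-fold and DMKN, a skin protein, at least 109-fold higher. In the other direction, HTR2B, a serotonin receptor, had 2.51 and 1.74 CPM in the controls and 0 counts in both treated libraries, at least 20.3-fold lower. NUPR1, a stress response factor, was at least 13.4-fold lower, from 50 and 25 counts. NRIR, a long noncoding RNA induced by interferon, was at least 6.59-fold lower.

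Of the 40 lists, neuronal and synaptic genes had the highest fitted median. Many of them carry the element bound by the repressor REST, which recruits HDACs outside the nervous system. Of 58 tested 39 rose and 0 fell, 67.2% against 24.0% of all tested genes, with a median log2 fold change of 3.08. Each control had at most 3 counts in 24 of the 58, so a fall could hardly be seen there, and 11 of the 39 rises were among these. Both treated libraries were also at or under 3 counts in 8 of the 24. Replacing the fold of each gene under the floor of 3 counts by its bound gave a median of 1.93, below the 3.05 of MHC class II. The rises were in each role, 14 of 22 synaptic genes, 14 of 18 of the cytoskeleton and axon, 4 of 6 channels and receptors and 7 of 12 secretory and RNA-binding genes. UNC13A, which primes synaptic vesicles, went from 0.342 and 0.436 CPM to 27.1 and 34.3 CPM (log2 fold change 6.28, SE 0.32, adjusted p = 8.52e-09), KIF5C, a kinesin of axonal transport, from 11.8 and 11.4 CPM to 177 and 194 CPM (log2 fold change 3.999, SE 0.23, adjusted p = 1.99e-08), and NRXN2, a neurexin, from 0.152 and 0 CPM to 20.97 and 21.3 CPM. The 4 libraries of KIF5C fall into tight pairs. INA, an intermediate filament of neurons, went from 4.71 and 2.83 CPM to 51.2 and 70.6 CPM (log2 fold change 4.01, SE 0.30, adjusted p = 2.55e-07), MAP2, a dendritic microtubule protein, from 8.13 and 3.31 CPM to 52.1 and 42.7 CPM (log2 fold change 3.05, SE 0.30, adjusted p = 1.65e-06), and TUBB3, neuronal beta-tubulin, from 144 and 184 CPM to 285 and 318 CPM. STMN2 and SNAP25 had 0 counts in both controls and were at least 42.2-fold and 24.7-fold higher. DCX, SYT4, SYN1, ELAVL4 and CHGA, also markers of neurons and neuroendocrine cells, had 0 CPM in all 4 libraries.

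Cancer-testis genes, which are silent in most adult tissues outside the germ line, were mostly silent in J82 with and without the drug. Of 23 tested 7 rose and 0 fell, and 12 had at most 3 counts in each of the 4 libraries. In 19 of the 23 each control had at most 3 counts, so a fall could hardly be seen, and 5 of the 7 rises were among these. MAGEC2 rose from 0.304 and 0.218 CPM to 7.37 and 3.35 CPM (log2 fold change 4.34, SE 0.46, adjusted p = 6.41e-06), and SSX1 had 0 counts in the controls and was at least 19.01-fold higher. MAGEA3 and MAGEA6 were at least 5.16-fold and 5.53-fold higher, but are near-identical copies. PRAME had 0 CPM in all 4 libraries.

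Of 22 luminal urothelial markers 12 rose and 1 fell, and with the J82 libraries alone 7 rose. Each control had at most 3 counts in 9 of the 22, so a fall could hardly be seen there, and 6 of the 12 rises were among these. CDH1, which encodes E-cadherin, rose from 3.38 and 4.25 CPM to 25.1 and 27.1 CPM (log2 fold change 2.77, SE 0.24, adjusted p = 6.36e-07), and CLDN7, a tight junction protein, from 1.48 and 0.509 CPM to 9.48 and 5.04 CPM (log2 fold change 2.87, SE 0.47, adjusted p = 2.51e-04). ESRP1, the splicing factor of epithelial cells, had 0 counts in the controls and 4.33 and 3.38 CPM with CM-1758, at least 34.6-fold higher, and GRHL3, an epithelial transcription factor, was at least 14.04-fold higher. KRT18 rose from 1556 and 2133 CPM to 2752 and 3058 CPM and KRT7 fell from 1425 and 1991 CPM to 649 and 320.4 CPM (log2 fold change -1.82, SE 0.36, adjusted p = 8.81e-04). GATA3, PPARG and EPCAM did not pass. Of 16 basal markers 5 rose and 2 fell, and 8 had at most 3 counts in each of the 4 libraries. Only 2 rose without control replicate 3, without treated replicate 1 or with the J82 libraries alone, and 3 without treated replicate 3. CDH3, P-cadherin, rose from 1.29 and 0.436 CPM to 7.34 and 6.57 CPM.

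Of 19 mesenchymal markers 5 rose and 5 fell, 26.3% each against 24.0% and 18.5% of all tested genes, and 3 fell without treated replicate 3. FN1, fibronectin, rose from 1200.4 and 885 CPM to 3765 and 3454 CPM (log2 fold change 1.79, SE 0.18, adjusted p = 1.91e-06), and ZEB1, a repressor of E-cadherin, from 31.7 and 29.3 CPM to 60.6 and 54.8 CPM (log2 fold change 0.92, SE 0.20, adjusted p = 0.00163). ZEB2, its relative, fell from 76.4 and 67.9 CPM to 49.7 and 36.9 CPM, VIM from 278 and 313 CPM to 168 and 131 CPM (log2 fold change -0.98, SE 0.25, adjusted p = 0.00511), and TAGLN, an actin-binding protein of contractile cells, from 16.4 and 16.2 CPM to 4.76 and 1.76 CPM (log2 fold change -2.33, SE 0.34, adjusted p = 6.94e-05). PDGFRA had 0 counts in the controls and was at least 32.9-fold higher. CDH2 did not pass, at -0.25. E-cadherin, fibronectin and ZEB1 thus rose in the same libraries.

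Of the fibrillar collagens COL3A1 fell from 2978 and 3177 CPM to 1767 and 1739 CPM (log2 fold change -0.81, SE 0.17, adjusted p = 0.00169) and COL5A2 from 963 and 1109 CPM to 648 and 474 CPM, while COL5A3 rose from 0.532 and 0.0727 CPM to 46.5 and 63.01 CPM (log2 fold change 7.501, SE 0.36, adjusted p = 1.05e-08). Of all 24 collagens 10 rose and 4 fell, 6 rose without control replicate 3 and 2 fell without treated replicate 3. Of 20 collagen-processing enzymes 8 fell and 3 rose, 6 rose without control replicate 1, and 5 fell without treated replicate 3 or with the J82 libraries alone. SERPINH1, the collagen chaperone HSP47, fell from 516 and 461 CPM to 46.7 and 25.7 CPM (log2 fold change -3.75, SE 0.22, adjusted p = 2.13e-08), and PLOD2, a collagen lysyl hydroxylase, rose from 650.01 and 620.1 CPM to 2186 and 2481 CPM (log2 fold change 1.88, SE 0.17, adjusted p = 1.17e-06). Of 20 matrix proteases and inhibitors 0 fell and 9 rose. The membrane protease MMP15 rose from 15.2 and 10.6 CPM to 49.3 and 53.7 CPM (log2 fold change 1.998, SE 0.19, adjusted p = 1.65e-06), and TIMP4, an inhibitor, rose from 3.798 and 2.22 CPM to 14.4 and 12.3 CPM. The list's median was 0.94, and 0.61 after the same replacement by bounds.

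Of 29 genes of TGF-beta signaling and of YAP and TEAD, the co-activator and DNA-binding factors of the Hippo pathway, 14 rose and 6 fell. ANKRD1, a target of YAP, rose from 107 and 70.4 CPM to 1217 and 1221 CPM (log2 fold change 3.78, SE 0.25, adjusted p = 6.12e-08), and CCN2, another target, from 131 and 68.2 CPM to 507 and 511 CPM (log2 fold change 2.36, SE 0.38, adjusted p = 1.69e-04). TEAD1 rose from 310.04 and 286 CPM to 768 and 872 CPM and WWTR1, which encodes TAZ, from 43.2 and 42.01 CPM to 84.8 and 86.9 CPM, while YAP1 fell from 77.3 and 84.2 CPM to 41.2 and 33.9 CPM (log2 fold change -1.11, SE 0.15, adjusted p = 3.66e-05). INHBA, a subunit of activin, rose from 6.76 and 4.25 CPM to 144 and 132 CPM (log2 fold change 4.65, SE 0.29, adjusted p = 4.13e-08), and TGFBR2, the type II receptor, from 9.42 and 3.74 CPM to 46.3 and 40.4 CPM (log2 fold change 2.72, SE 0.28, adjusted p = 3.29e-06). SMAD3, a signal transducer of the pathway, fell from 69.2 and 39.5 CPM to 28.7 and 18.3 CPM, and SMAD7, its inhibitor, rose from 16.9 and 17.95 CPM to 30.2 and 37.97 CPM. TGFB1 and TGFB2 did not pass, at 0.45 and -0.34.

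Growth factor receptors moved gene by gene. ERBB3 rose from 18.8 and 16.8 CPM to 110.1 and 98.3 CPM (log2 fold change 2.55, SE 0.24, adjusted p = 1.25e-06) and FGFR3, a receptor often mutated in bladder cancer, from 13.4 and 12.1 CPM to 53.2 and 50.1 CPM (log2 fold change 2.02, SE 0.16, adjusted p = 2.61e-07). FGFR4 had 2 and 0 counts in the controls and was at least 58.5-fold higher. AXL, another receptor tyrosine kinase, fell from 1388 and 903 CPM to 385 and 147 CPM (log2 fold change -2.11, SE 0.32, adjusted p = 9.34e-05), and ERBB2 from 86.1 and 66.8 CPM to 57.4 and 41.8 CPM (log2 fold change -0.63, SE 0.16, adjusted p = 0.00655). EGFR and MET did not pass, at -0.54 and -0.22. In the list of 19, 10 rose and 6 fell, and 2 fell without treated replicate 3. EREG, the ligand epiregulin, had 10.8 and 0.909 CPM in the controls and 45.7 and 5.31 CPM with CM-1758, and its groups overlap, although it passed (adjusted p = 0.0487).

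Of the other abundant genes with strong changes, OXTR, the oxytocin receptor, fell from 1706 and 1638 CPM to 433 and 217 CPM (log2 fold change -2.36, SE 0.24, adjusted p = 2.96e-06). CLIC4, a chloride channel protein, rose from 280.4 and 459.5 CPM to 1219.8 and 1746 CPM (log2 fold change 2.003, SE 0.25, adjusted p = 1.74e-05). CPA4, a carboxypeptidase, had 94.3 and 22.9 CPM in the controls and 985 and 249 CPM with CM-1758 (log2 fold change 3.397, SE 0.58, adjusted p = 2.69e-04). For CPA4 replicate 1 lay about 4-fold above replicate 3 in both groups.

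Cholesterol genes fell. The sterol-sensing factor SREBF2 turns on both the synthesis of cholesterol and its uptake. Of 24 tested 19 fell and 2 rose, with a median log2 fold change of -0.87, from -0.83 to -0.88 with either control alone. CYP51A1, lanosterol demethylase, fell from 1109.8 and 1226 CPM to 392 and 308 CPM (log2 fold change -1.74, SE 0.18, adjusted p = 2.87e-06). SREBF2 itself fell from 98.1 and 52.9 CPM to 56.2 and 42.1 CPM, where the groups overlap. Of 23 genes of PPAR signaling and lipid storage 13 rose and 4 fell, and 2 fell without control replicate 1 or treated replicate 3. FABP4, a fatty acid-binding protein of fat cells, had 0 counts in the controls and 8.41 and 15.1 CPM with CM-1758. DGAT2, an enzyme of triglyceride synthesis, rose from 13.8 and 8.47 CPM to 56.6 and 55.8 CPM (log2 fold change 2.34, SE 0.22, adjusted p = 1.55e-06), and FASN, fatty acid synthase, fell from 269 and 141 CPM to 115 and 99.9 CPM.

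Of 18 cytosolic and mitochondrial heat shock genes 12 fell and 2 rose. HSPA8, the constitutive HSP70, fell from 2934 and 4809.6 CPM to 1434 and 1349.6 CPM (log2 fold change -1.48, SE 0.20, adjusted p = 3.51e-05), HSPD1, the mitochondrial HSP60, from 1219 and 1692 CPM to 670.2 and 615 CPM, and HSPA2, an HSP70 of the testis, rose from 0.532 and 0.763 CPM to 10.6 and 19.1 CPM (log2 fold change 4.503, SE 0.35, adjusted p = 2.47e-07). Of 17 chaperones of the endoplasmic reticulum 6 fell and 1 rose, and 3 fell without control replicate 1, without treated replicate 3 or with the J82 libraries alone. Of 19 targets of ATF4, the factor of the integrated stress response, 8 fell and 2 rose, among the falls DDIT3 (CHOP), from 82.6 and 58.8 CPM to 37.7 and 33.2 CPM, and ATF4 itself, from 169 and 236 CPM to 102 and 105 CPM (log2 fold change -0.97, SE 0.16, adjusted p = 2.10e-04).

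Of 19 targets of NRF2, the factor of the oxidant response, 10 rose and 5 fell, and without treated replicate 3 it was 6 and 3. Without control replicate 3, 3 fell. SRXN1, sulfiredoxin, rose from 61.1 and 75.6 CPM to 212 and 384 CPM (log2 fold change 2.12, SE 0.22, adjusted p = 3.39e-06), and GCLC, which makes the precursor of glutathione, from 47.5 and 50.5 CPM to 87.2 and 135 CPM. KEAP1, the inhibitor of NRF2, fell from 81.1 and 85.8 CPM to 26.8 and 26.1 CPM (log2 fold change -1.66, SE 0.18, adjusted p = 5.53e-06), and NQO1, a quinone reductase, from 1347 and 1759.5 CPM to 1025 and 897 CPM (log2 fold change -0.69, SE 0.18, adjusted p = 0.00615). Of 9 metallothioneins, which bind metal ions, 3 rose and 1 fell, and 5 rose without treated replicate 1. MT1X rose from 24.8 and 28.6 CPM to 64.3 and 133 CPM and MT1M fell from 11.8 and 14.03 CPM to 4.55 and 4.47 CPM, and MT3 was at least 36.04-fold higher from 0 counts. Of 35 genes of ribosome biogenesis 0 rose and 18 fell. NCL, nucleolin, fell from 301 and 311 CPM to 144 and 119 CPM (log2 fold change -1.22, SE 0.17, adjusted p = 4.30e-05), and NPM1, nucleophosmin, fell from 1029.8 and 1682 CPM to 629 and 669 CPM. Of 31 lysosome and autophagy genes 7 rose and 5 fell, and 2 fell without control replicate 1 and 3 without treated replicate 3. The 7 and 5 genes are 22.6% and 16.1%, near the 24.0% and 18.5% of all tested genes, and the list's median log2 fold change was 0.02. TFEB, a factor known to drive such genes, rose from 0.304 and 0.254 CPM to 2.83 and 2.94 CPM (log2 fold change 3.35, SE 0.31, adjusted p = 1.07e-06).

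Of 19 AP-1, EGR and ID factors 7 rose and 2 fell. ID1, an inhibitor of basic helix-loop-helix factors, rose from 60.95 and 60.4 CPM to 132 and 202 CPM (log2 fold change 1.46, SE 0.18, adjusted p = 1.99e-05), and FOSL1, an AP-1 subunit, fell from 31.3 and 13.1 CPM to 7.05 and 3.25 CPM (log2 fold change -2.11, SE 0.43, adjusted p = 0.00118). Of 9 members of the MYC family and its antagonists 3 rose and 1 fell. MYC did not pass, at 0.37, and MXI1, its antagonist, rose from 13.4 and 16.4 CPM to 35.5 and 51.8 CPM. Of 14 KLF factors 5 rose and 2 fell, 2 rose without control replicate 3 or treated replicate 3, and 1 rose with the J82 libraries alone. KLF5 rose from 31.8 and 25.5 CPM to 73.5 and 89.1 CPM (log2 fold change 1.504, SE 0.14, adjusted p = 1.34e-06) and KLF11 fell from 12.1 and 12.5 CPM to 3.36 and 4.196 CPM. Of 18 retinoid genes 5 rose and 4 fell, and 3 rose with the J82 libraries alone. TGM2, transglutaminase 2, rose from 4.899 and 2.87 CPM to 44.4 and 41.5 CPM (log2 fold change 3.47, SE 0.29, adjusted p = 4.53e-07), and DHRS3, a retinal reductase, fell from 23.2 and 17.4 CPM to 4.33 and 2.88 CPM. The 7 abundant small noncoding RNAs, which took 12.8% to 16.05% of the counts of the J82 libraries, held 0 rises and 0 falls.

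The change in J82 was set against the mean change of the other 3 lines in the same fit. The difference passed an adjusted p of 0.05 above the others in 2195 genes (10.3% of those tested) and below them in 2360 (11.1%). Of the 53 interferon-induced effectors 34 fell further in J82 than in the mean of the others and 1 less, and the other lines had median log2 fold changes of -0.56 in 253J, -0.45 in RT112 and -2.08 in TCCSUP. Of the 44 mitosis genes 13 differed with the J82 change above that of the others and 1 below. In J82 0 of the 44 rose, and the median log2 fold change was -1.10, against -2.37 in 253J, -0.34 in RT112 and -2.26 in TCCSUP. In the replication-dependent histones 9 of 38 and in DNA replication 8 of 41 lay above and 0 below.

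In the 5 genes with the largest differences on the lower side (TMEFF2, TM4SF19, CA8, SLFN11 and PLCL1), the controls of 253J and RT112 had 0 counts and those of J82 had 23 to 4567. SLFN11, a helicase-like gene that sensitizes cells to DNA-damaging agents, had 170.3 and 166 CPM in the controls and 193 and 174 CPM with CM-1758 in J82 and did not pass there (log2 fold change 0.13). In the controls of 253J and RT112 it had 0 counts and in those of TCCSUP 63 and 60 counts, against 4485 and 4567 counts in J82, and it reached 42 to 1077 counts in the treated libraries of those 3 lines. TMEFF2, a transmembrane protein, and CA8, a carbonic anhydrase-related protein, had 0 counts in all 6 control libraries of the other lines. In J82 TMEFF2 had 16.9 and 18.1 CPM in the controls and 35.3 and 38.7 CPM with CM-1758 and CA8 20.4 and 23.7 CPM in the controls and 46.9 and 56.5 CPM with CM-1758, and both rose, with log2 fold changes of 1.08 and 1.23. For genes at 0 in the other controls the size of the difference depends on the fit. In the other direction, MAMDC2 went from 22324 and 15149 counts to 2251 and 2523 counts in 253J and rose in J82, with log2 fold changes of -0.08 in RT112 and -1.55 in TCCSUP. TEAD2, a partner of YAP, rose from 0.456 and 0.618 CPM to 6.26 and 6.67 CPM in J82, and had log2 fold changes of 2.15 in RT112, -2.12 in 253J and -2.46 in TCCSUP. MDGA1, a synaptic adhesion protein, rose from 1.22 and 0.872 CPM to 14.1 and 14.04 CPM in J82 and had log2 fold changes of 1.10 in RT112, -3.00 in 253J and -1.18 in TCCSUP. For both genes RT112 thus had a value of the same sign as J82.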

How the data were processed

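Total RNA of the 16 cultures was depleted of ribosomal RNA, made into stranded libraries and sequenced by a service provider. The deposited table holds raw read counts per gene symbol, 1 column per library, made by the authors with replicates not pooled. The submitters' processing notes name HISAT2, StringTie and the build GRCh37, and the counting tool and annotation are not given in the sources used here. Library totals were 22506431 to 32537104 counts, and counting error is largest in genes of few counts.

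Counts were fitted in edgeR 4.0.16 (R 4.3.3) with the quasi-likelihood test over all 8 groups, 2 libraries each, after filterByExpr (21297 of 35993 genes) and TMM scaling. P-values were adjusted by the Benjamini-Hochberg method over all tested genes, and SE is the absolute log2 fold change over the square root of F. The difference of J82 from the mean change of the other lines was tested as an interaction in the same fit. Alternatives were DESeq2 1.42.0, other scalings and filters, a replicate block, the J82 libraries alone and each J82 library left out. The spread of J82 alone (biological coefficient of variation 0.220) exceeded that of all groups (0.153), so p-values from the shared fit are small for J82. The labels do not say that the libraries of a group were separate cultures, and the study's methods give 2 independent experiments.

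The 40 gene lists and their members were chosen with earlier results of these data known and are described with no set test. Of 982 listed genes 981 were found and 958 tested. Named genes are the 8 largest and 8 smallest log2 fold changes among strong calls with 10 counts or more in every J82 library and no overlap between groups, the 6 most abundant with at most 3 counts in both controls or in both treated libraries, the 12 most abundant strong calls, up to 4 members of each list with the smallest adjusted p and members described for their role, the 5 genes furthest above and below the other lines, the 8 furthest apart between the controls in each direction, and a preset set of drug targets and immune regulators. The members described for their role were chosen after their values were seen. Promoter letters and the GENCODE v29 transcripts are of GRCh38 and were used by gene symbol only. Some genes that the rule names are not reported here.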

Additional observations from a re-analysis of the deposited data

Results flagged for a closer look

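The change in J82 differed from the mean change of 253J, RT112 and TCCSUP, by the interaction test in edgeR at an adjusted p of 0.05, in 2195 genes above the other lines and in 2360 below. The largest differences above, on the log2 scale, were 6.95 for MAMDC2, 4.89 for FUT1, 4.78 for MDGA1, 4.63 for RPL24P8 and 4.39 for TEAD2. RPL24P8 is a pseudogene of a ribosomal protein gene, and its reads may belong to copies. The largest below were -7.94 for TMEFF2, -7.58 for TM4SF19, -7.47 for CA8, -7.42 for SLFN11 and -6.82 for PLCL1. For these 5 genes the controls of 253J and RT112 had 0 counts, so the sizes depend on the fit, and PLCL1 rose in J82 (log2 fold change 3.15).

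By list, the test put 34 of 53 interferon-induced effectors below the other lines. It put 13 of 44 mitosis genes, 9 of 38 replication-dependent histones and 8 of 41 DNA replication genes above them. Over all tested genes the shares were 10.3% above and 11.1% below. A change above the other lines is not a rise in J82, where these 3 lists had median log2 fold changes of -1.10, -0.70 and -0.69.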

How the results depend on the processing

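Strong rises ran from 1345 to 1821 and strong falls from 159 to 331 when 1 of the 4 J82 libraries was left out, the fewest falls without CM-1758 replicate 3. At an adjusted p of 0.05 the same settings gave 4194 to 5159 rises and 2915 to 3652 falls. Among genes with at least 10 counts in every J82 library 658 rose strongly. With the J82 libraries alone, 2585 genes fell at the adjusted p of 0.05 in edgeR and 2480 in DESeq2, and 3333 rose in DESeq2. Other scalings, the fit with no filter and DESeq2 over all libraries kept the counts of strong calls within 1.5 times.

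Of 342 genes examined singly, 4 changed sign with a call. FBXO32 had a log2 fold change of 1.76 without control replicate 1 and -0.79 without control replicate 3. FOS had -0.75 and 0.93 and STBD1 -0.80 and 0.90 under the same settings. EREG had values from -0.062 without CM-1758 replicate 1 to 4.80 without control replicate 1. Over all settings a call was lost in 114 cases and gained in 87, and 4439 kept direction and side of the threshold. The cause was not tested. The median of all genes was 0.05, 0.14 with RLE scaling and 0.19 by library size. List medians moved beyond the spread between library pairs in 83 cases and not in 475. No list median could be had for the small noncoding RNAs left out, nor for cancer-testis genes with 10 counts in every library.

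With the replicate number as a block, 1954 genes were higher and 278 lower at the strong thresholds over all libraries, and 1614 and 281 with the J82 libraries alone. The deviations of same-numbered J82 libraries correlated at 0.218 over 21297 genes, with only 2 numbers, and the labels do not say what a number marks.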
